A study of Mus musculus with 2 samples.

Results

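The cytosolic ribosomal protein genes were described in single eYFP+ cells of mouse perigonadal white adipose tissue (gWAT). They were taken by name: every row called Rpl or Rps followed by a digit, plus Rplp0, Rplp1, Rplp2 and Rpsa, without the rows marked as pseudogenes and without the Rps6k kinases. This gave 86 of the 32285 genes in each table, 52 of the large and 34 of the small subunit, spread over 19 chromosomes. Of these, 77 encode core proteins of the ribosome, and the other 9 are paralogs or genes that only share the name (Rpl3l, Rpl7l1, Rpl10l, Rpl22l1, Rpl36al, Rpl39l, Rps27l, Rps27rt and Rps19bp1). The core genes held 98.6% of the members' UMIs (unique molecular identifiers, each standing for 1 captured mRNA molecule) in both libraries.

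Both groups were male Cyp1a1 fate reporter mice (Cyp1a1Cre x R26LSL-eYFP), in which Cre made from Cyp1a1 switches on eYFP for good, so that a cell stays labelled after Cyp1a1 has been silenced. One group ate a low-fat diet (LFD; 10% fat) and the other a high-fat diet (HFD; 60% fat), each for 12 weeks. All mice of both groups received FICZ, a ligand of the aryl hydrocarbon receptor, at 10 mg/kg 5 days before tissue collection, so no group without ligand was compared here. Live eYFP+ cells of the stromovascular fraction were sorted from pooled mice and made into 1 droplet library per diet. Mature adipocytes are left behind by this preparation, and cells that never used Cyp1a1 are left out by the sort. The ages of the mice at collection were not given in the labels. With 1 library per diet, a difference between the diets has no replicate check, and no p-value is given. The exact 95% intervals in the text cover counting error only.

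After filtering, 10216 LFD and 8537 HFD cells remained, with a median of 10636.5 and 13231 UMIs per cell. The libraries shared 27 cell barcodes. Cell types were assigned from the detection of marker genes, and the 9 types that reached 50 cells in each library held 72.7% of the LFD and 72.3% of the HFD cells. Detection of these markers follows from the assignment and is no independent check of the names. Cdh5 had a UMI in 93.6% of LFD endothelial-like cells and Cd79a in 99.8% of B-like cells. Of the 10 markers of the Wt1+ stromal-like type, Wt1 (94.7%) and Gata6 (91.1%) were common in LFD, while Gata4 (3.29%) and Tcf21 (0.443%) were rare, and none of the 10 was among the type's 10 leading genes. The T-like type was small, with 53 cells in each library, and Cd3e had a UMI in 62.3% of its LFD and 47.2% of its HFD cells. Only 90 LFD cells were fibroblastic progenitor-like, and Dpp4, 1 of their markers, was detected in 35.6% of these and in 57.5% of the HFD cells.

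The ribosome is built from ribosomal RNA and about as many proteins as there are genes in the core list, nearly all needed in equal numbers. Mammalian mRNAs for these proteins usually start with a C followed by a run of pyrimidines, the terminal oligopyrimidine (TOP) tract, through which mTOR and LARP1 adjust their translation and stability together. Because these mRNAs are abundant, they make up a large part of the UMIs in a droplet library. A few have close paralogs (Rpl22l1 beside Rpl22, Rps27l beside Rps27, Rpl36al beside Rpl36a), and these are the members for which unequal use between tissues is best known.

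The sequences around the transcription start show how the members differ at the TOP tract. RefSeq promoter entries (mm10, GRCm38.p6) were matched for 66 of the 86 members, 10 of them with more than 1 entry. Windows of 30 bases are shown for a pair of canonical members and for the partners of the paralogs. Some of the members whose share differed most between cell types are shown as well, without Rps29, Rps19bp1 and Rpl7l1. In each line the start site is the base after the first 12 bases, and capitals mark the longest run of at least 6 pyrimidines (C or T) that reached between 5 bases before and 10 bases after the start.
Rps6, chr4:86857350-86857379, minus strand: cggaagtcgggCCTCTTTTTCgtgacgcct
Rplp2, chr7:141447639-141447668, plus strand: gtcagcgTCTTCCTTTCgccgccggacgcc
Rps27, chr3:90213631-90213660, minus strand: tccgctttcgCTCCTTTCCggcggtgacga
Rps27l, chr9:66946074-66946103, plus strand: CTCCTCCCCgccgcctctatcccggaagtt
Rpl22l1, chr3:28805496-28805525, plus strand: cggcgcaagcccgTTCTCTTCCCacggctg
Rpl22, chr4:152325714-152325743, plus strand: gccctgggaaaagcaatagctggccgatcg
Rpl36a, chrX:134585642-134585671, plus strand: cacccaggcaccgcctataaacttccgttg
Rpl39, chrX:37085205-37085234, minus strand: aagctccgcctctagcgaCTTCTTCTaatc
Rpl10, chrX:74270804-74270833, plus strand: gttacagtggaagataggccgcctatataa
Rpl36al, chr12:69184050-69184079, minus strand: tcccgtcgctcaggttcagttccgacttcc

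In Rps6 and Rplp2 a run of 10 pyrimidines spanned the start, as it did with 9 in Rps27. In its paralog Rps27l the run of 9 ended before the annotated start, in the first of its 2 entries. Rpl10 and Rpl36al held no run of this length in the window, and neither did the canonical partners Rpl22, in both of its entries, and Rpl36a. Over the members with an entry, 36 of 66 (54.5%) had such a run, against 27.6% of all 27025 genes with an entry. Within the 300 bases of each promoter entry, the letters CTTCCG were found on either strand in 44 members (66.7%) and in 18.8% of all promoters. The letters AAGATGGC were found in 6 members (9.09%) and in 3.19% of all, and CTCGCGAG, a palindrome chosen after a longer form had been seen, in 7 members (10.6%) and 1.04% of all. The letters GGGCGG were in 41 members (62.1%) and 38.2% of all, CACGTG, which reads the same on both strands, in 6 (9.09%) and 8.09%, and TATAAA in 7 (10.6%) and 15.7%. No motif in this set contains another. A match describes the letters in the window, and is neither a binding site nor a cause. RefSeq starts are annotated positions, and were not measured in these cells.

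The share of a cell's UMIs that came from ribosomal protein genes differed more than 2-fold between the compared cell types, with B-like cells at the top in both libraries and macrophage-like cells at the bottom in LFD. B-like cells gave 29.4% of their UMIs to these genes in LFD and 27.6% in HFD. ILC2-like cells, the group 2 innate lymphoid cells, gave 26.7% and 24.5%, and T-like cells 24.0% and 24.2%. Plasma-like cells gave 22.8% and 20.1%. Macrophage-like cells gave 13.4% and 11.9%, so that the B-like, ILC2-like, T-like and plasma-like cells lay above and the macrophage-like cells below every stromal type.

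Among the stromal types, Wt1+ stromal-like cells had 19.3% in LFD and 18.7% in HFD, mesothelial-like cells 18.9% and 17.1%, and fibroblastic progenitor-like cells 17.0% and 14.3%. Endothelial-like cells had 18.1% in LFD and 11.8% in HFD. By pooled share they were thus close to the mesothelial-like cells in the LFD library. In the HFD library they were the lowest of the 9 types by this measure, by a narrow margin under the macrophage-like cells. The pooled share gives more weight to cells with many UMIs. The median LFD endothelial-like cell had 14.9%, against 18.8% in mesothelial-like and 13.1% in macrophage-like cells. In HFD the median was 9.32%, against 11.9% in macrophage-like cells. The counting intervals of neighbours in the order of pooled shares overlapped only for ILC2-like and T-like cells in HFD. Single cells varied far more than that, and the ranges from the first to the third quartile overlapped for every pair of neighbours.

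**Figure D1:**
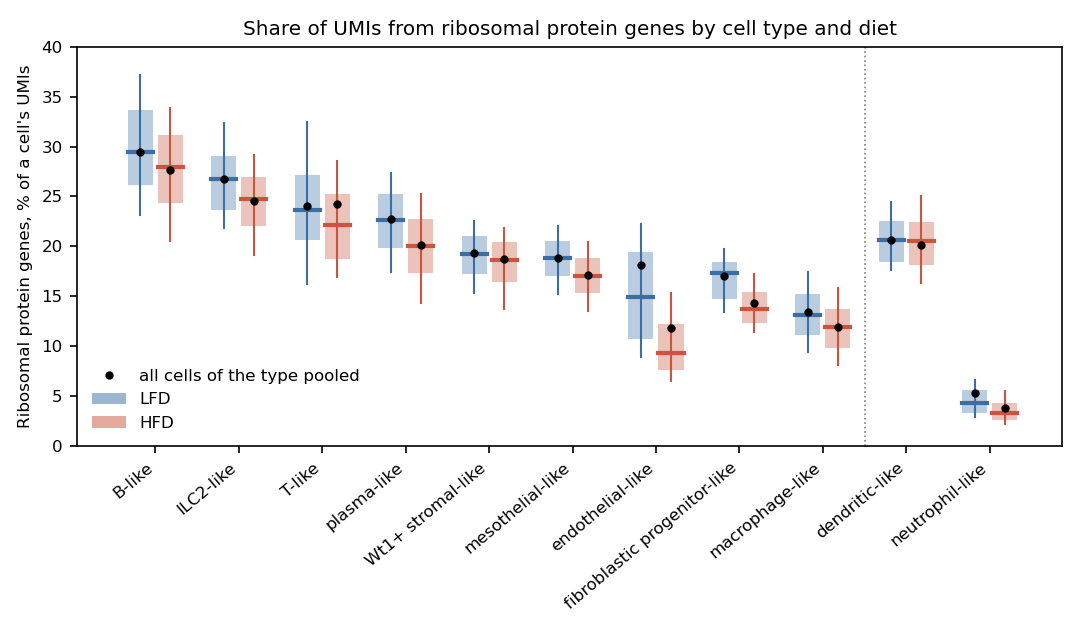
Percent of a cell's UMIs from the 86 ribosomal protein genes (vertical axis, linear from 0) in each cell type (horizontal axis), for LFD and HFD; boxes span the quartiles of single cells, coloured lines their medians, thin lines the 10th to 90th percentiles, and black points the share with all cells of a type pooled. B-like cells sit highest of the 9 compared types, macrophage-like cells have the lowest pooled share in LFD and endothelial-like cells in HFD, the endothelial-like median drops from 14.9% to 9.32%, and the pair of types right of the dotted line had under 50 cells in a library.

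The plot of shares by type also carries dendritic-like and neutrophil-like cells, which were too few in a library for the comparisons. Neutrophil-like cells had a lower share than any of the 9 compared types, 5.24% in LFD (152 cells) and 3.76% in HFD (44 cells). The order of the types depended on what else a cell transcribes. Plasma-like cells devote much of their mRNA to immunoglobulin, which held 29.0% of their UMIs in LFD and 34.95% in HFD. With immunoglobulin genes left out of the total, the share of ribosomal protein genes in plasma-like cells was 32.0% in LFD and 30.9% in HFD. B-like cells had 29.9% and 28.1% on this scale, so plasma-like cells then stood highest in both libraries. Thinning every cell to 2000 UMIs left the shares near their unthinned values, for example 29.9% and 27.7% in B-like cells and 13.4% and 12.0% in macrophage-like cells, and left out 27 of 53 LFD T-like cells.

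Single members were then read as CPM, a gene's UMIs scaled to a fixed total over all genes, and in the types at the ends many followed the sum. In B-like cells 31 of 83 members (37.3%) lay at least 1.5-fold above their own median over the 9 types in both libraries, against 19.4% of all genes with enough counts. In macrophage-like cells 39 of 83 (47.0%) lay at least 1.5-fold below it, against 6.75% of all genes. In ILC2-like cells 8 of 81 members lay that far above (background 24.4%), in T-like cells 5 of 80 (34.6%) and in plasma-like cells 3 of 83 (10.6%), and none lay that far below (2.55%, 1.6% and 36%). No member passed 1.5-fold in the other 4 types. There, the share of all genes that lay 1.5-fold above was 28.2% in endothelial-like, 24.5% in mesothelial-like, 24.3% in Wt1+ stromal-like and 26.4% in fibroblastic progenitor-like cells, and the share below 2.06%, 3.78%, 3.98% and 4.87%. In B-like cells 1 member lay below (background 11.2%) and in macrophage-like cells none lay above (25%).

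Cells with transcripts of the division machinery did not share 1 pattern. In B-like cells, cycling cells gave a smaller share to ribosomal protein genes than the others, 26.3% against 31.0% in LFD and 25.01% against 28.5% in HFD. In plasma-like cells they gave a larger share, 23.4% against 21.4% in LFD and 21.1% against 18.8% in HFD. Endothelial-like cycling cells also had a larger share, 20.1% against 17.1% in LFD and 15.7% against 11.2% in HFD. Cycling cells held more UMIs in all of these types, for example a median of 10975 against 3311 in LFD endothelial-like cells.

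To ask whether members were used in unequal proportions, each was expressed as a percent of the members' UMIs in a type and compared with its median over the types, separately in each library. The proportions were close to equal for nearly all members. Of 742 pairs of a member and a type with at least 20 counts in both libraries, 12 (1.62%) lay at least 1.5-fold from the median type in the same direction in both. Over all genes on the same scale it was 37.1% of pairs. This scale divides by the members' own sum, which centres the members but not other genes, so that percent is no like background. On CPM, 31 members lay that far above in B-like cells and 39 that far below in macrophage-like cells. With a stricter cell filter (at least 2000 UMIs and under 5% mitochondrial UMIs), 6 member pairs passed 1.5-fold as a share of the members' UMIs. Among the core members it was 3 of 693 pairs, and 74 of the 77 core members never passed 1.5-fold. The 12 pairs belonged to 8 members: the core genes Rps29, Rpl10 and Rpl39, and Rps27l, Rpl36al, Rpl22l1, Rps19bp1 and Rpl7l1 outside the core. Deviations of the 77 core members were alike in the libraries, with a Pearson correlation of 0.757 in ILC2-like to 0.956 in plasma-like cells (77 genes; the points share cells, depth and total).

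**Figure D2:**
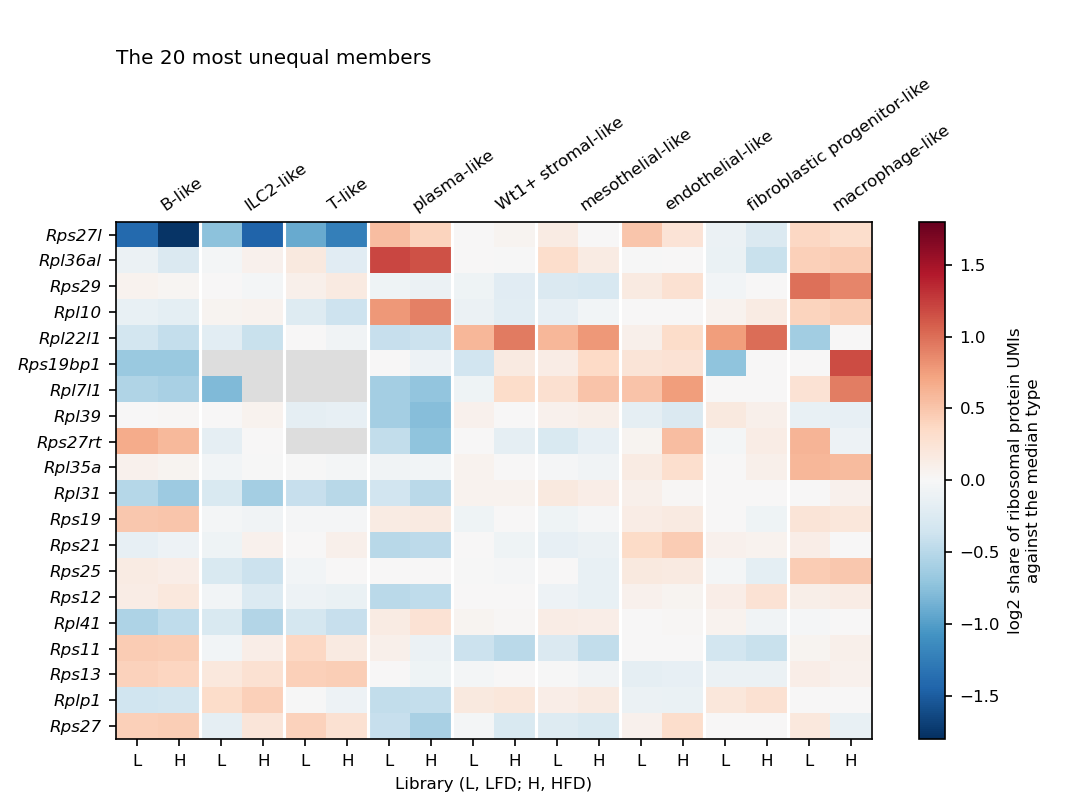
Heatmap of the 20 members with the largest deviation (rows) in the 9 cell types, each with its LFD (L) and HFD (H) library (columns); colour gives the log2 of a member's share of ribosomal protein UMIs against its median over types in that library, and grey cells had under 20 counts in a library. Rps27l is low in the B-like, ILC2-like and T-like columns, Rpl22l1 high in the 3 stromal types, and Rpl10 and Rpl36al high and Rpl39 low in plasma-like cells, with LFD and HFD side by side.

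Rps27l (ENSMUSG00000036781), a paralog of the small subunit protein eS27 that is known as a p53 target, was the most unequal member. It made up 0.0887% of the members' UMIs in LFD and 0.0737% in HFD B-like cells, and 0.343% and 0.331% in plasma-like cells. In the other types it was 0.140% and 0.0928% in ILC2-like, 0.124% and 0.107% in T-like, and between 0.210% and 0.330% in macrophage-like, endothelial-like and stromal types. The 3 lymphoid types other than plasma-like cells lay below all others in both libraries. Its log2 deviation from the median type was −1.40 in LFD and −1.77 in HFD B-like cells. Set against its partner, there were 7.55 Rps27l UMIs per 100 Rps27 UMIs in LFD and 7.02 in HFD B-like cells, and 52.5 and 63.9 in plasma-like cells, so the ratio differed 6.95-fold in LFD and 9.11-fold in HFD between the lowest and the highest type. Part of that range came from Rps27 itself, which was higher in B-like cells, at 1.35-fold its median share. Rps27 and Rps27rt, an intronless copy, encode nearly the same mRNA, and reads of these could not be told apart with certainty.

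Rpl22l1 (ENSMUSG00000039221), the paralog of the 28S rRNA-binding protein Rpl22, was high in the stromal cells. Its share of the members' UMIs was 0.782% in LFD and 0.794% in HFD fibroblastic progenitor-like cells, 0.703% and 0.751% in Wt1+ stromal-like cells, and 0.700% and 0.677% in mesothelial-like cells. In the 6 other types it lay between 0.294% and 0.498%, with no overlap with the 3 stromal types. Per 100 UMIs of Rpl22 there were 132 and 127 UMIs of Rpl22l1 in fibroblastic progenitor-like, 115 and 116 in Wt1+ stromal-like, and 113 and 103 in mesothelial-like cells. The paralog thus outnumbered its partner in UMIs in these types alone. In macrophage-like cells there were 42.7 and 53.4, in B-like cells 55.9 and 38.5, and in ILC2-like cells 60.0 and 37.2 per 100.

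Rpl36al (ENSMUSG00000049751), the autosomal counterpart of the X-linked Rpl36a, was high in plasma-like cells. Its share was 0.857% in LFD and 0.856% in HFD plasma-like cells, against 0.529% or less in every other type. Per 100 UMIs of Rpl36a there were 173 and 186 UMIs of Rpl36al in plasma-like cells, 110 and 120 in macrophage-like cells, and 58.0 and 54.4 at the lowest, in fibroblastic progenitor-like cells. The order of plasma-like above macrophage-like above all other types held in both libraries.

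**Figure D3:**
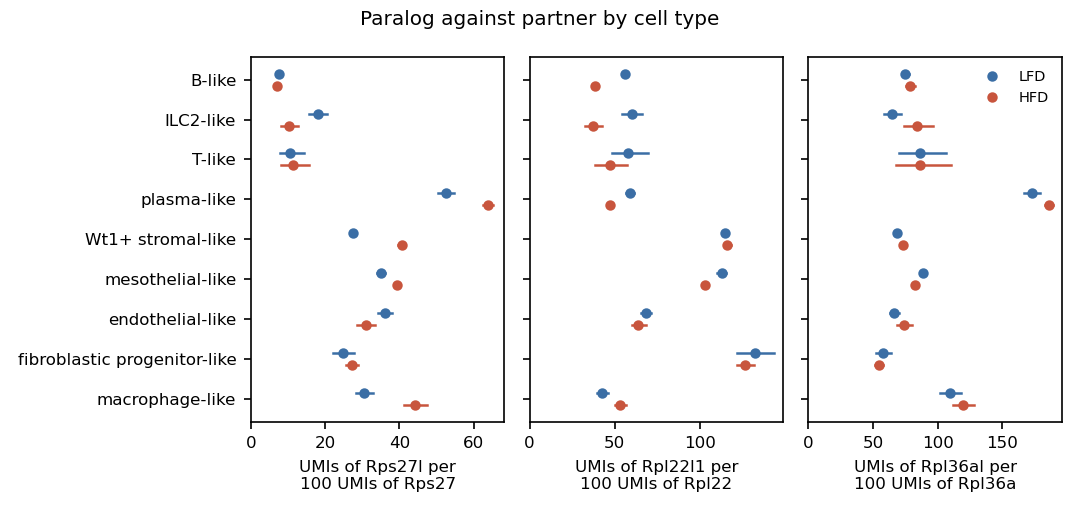
UMIs of a paralog per 100 UMIs of its partner (horizontal axes, linear from 0) in each cell type (vertical axis) for Rps27l with Rps27, Rpl22l1 with Rpl22, and Rpl36al with Rpl36a; points are LFD and HFD values and lines their exact 95% intervals. Rps27l runs from 7.02 in HFD B-like to 63.9 in HFD plasma-like cells, Rpl22l1 passes 100 in the 3 stromal types only, and Rpl36al is highest in plasma-like cells at 173 and 186.

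The plot of paralogs against partners counts UMIs of different mRNAs. A ratio over 100 therefore compares captured molecules, with no correction for transcript length. Among the remaining paralogs, Rpl7l1, related to Rpl7, held 1.58 to 4.38 UMIs per 100 of Rpl7 in LFD and 1.36 to 5.06 in HFD, at few counts. Among types with at least 20 counts in both libraries, its share against the median was lowest in plasma-like cells, 0.653-fold in LFD. In LFD ILC2-like cells it was lower still, at a log2 of −0.79 on 32 counts, but the HFD library had only 19. Rpl10l, Rpl39l and Rpl3l, known from testis or muscle, were nearly unseen: Rpl10l had 5 UMIs in LFD and 0 in HFD, Rpl3l 9 and 5, and Rpl39l 76 and 82. A UMI of Rpl39l was found in 0.401% of LFD and 0.551% of HFD cells.

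Of the core genes, Rpl10 and Rpl39 were unequal in plasma-like cells in opposite directions. Rpl10, the protein that completes the 60S subunit late in its assembly and borders the peptidyl transferase centre, made up 1.67% of the members' UMIs in LFD and 1.89% in HFD plasma-like cells. In the other 8 types it made up 0.829% to 1.29% in LFD and 0.782% to 1.38% in HFD. Rpl39, a small protein of the exit tunnel wall, made up 1.05% and 0.934% in plasma-like cells, and 1.42% to 1.796% in LFD and 1.32% to 1.71% in HFD in the other types. Both thus stood outside the range of every other type in each library. Rpl10 and Rpl36a have annotated pseudogene rows that took UMIs in both libraries, so their levels are uncertain to that extent.

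Rps29, a small zinc-binding protein of the 40S head, was high in macrophage-like cells at 2.34% of the members' UMIs in LFD and 1.92% in HFD. In the other types it made up 0.983% to 1.31% in LFD and 0.852% to 1.26% in HFD. Macrophage-like cells also had the highest share of Rpl35a, 1.48-fold the median type, which did not pass 1.5-fold. In B-like cells Rps19, the most often mutated gene in Diamond-Blackfan anaemia, stood at 1.39-fold and Rpl31 at 0.700-fold the median type, although in CPM of all UMIs Rpl31 lay 0.091 above it on the log2 scale. Rps19bp1, which encodes a nucleolar binding partner of Rps19 and no ribosomal protein, stood at 0.628-fold in B-like cells, and Rps27rt at 1.49-fold, both from low counts.

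By role, the members of a structural unit did not all move in 1 direction. Of the stalk, which recruits the elongation factors, Rplp1 was lowest in plasma-like cells, at a log2 deviation of −0.44 in LFD and −0.43 in HFD, and highest in ILC2-like cells at 0.34 and 0.42. Its partner Rplp2 was highest in macrophage-like cells at 0.39 and 0.35, where their common anchor Rplp0 was lowest, at −0.26 and −0.22. The 5S particle proteins Rpl5 and Rpl11, which also bind MDM2 when ribosome assembly fails, were among the more even members. Rpl11 stayed between −0.12 and 0.07 in LFD and between −0.11 and 0.04 in HFD, and Rpl5 between −0.21 and 0.20 over both.

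Several of the role members were lowest in macrophage-like cells. Rpl4, of the exit tunnel, stood there at −0.43 and −0.36, Rps3, at the mRNA entry, at −0.37 and −0.35, and Rpl3, beside the peptidyl transferase centre, at −0.26 and −0.17. Rps6, the S6 kinase substrate, ran from −0.32 and −0.23 in macrophage-like cells to 0.34 and 0.49 in plasma-like cells. Rps27a, made as a fusion with ubiquitin, was in contrast highest in macrophage-like cells, at 0.31 and 0.39. Rps2 was highest in mesothelial-like cells at 0.34 and 0.38, and Rpl17 stayed between −0.20 and 0.21. None of these role members passed 1.5-fold in both libraries, other than Rpl10 and Rpl39.

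To ask how the diet groups differed, the CPM of each member in HFD was divided by that in LFD within each type. As a share of all UMIs, ribosomal protein genes were lower in HFD in 8 of 9 types, and much lower in endothelial-like cells. Relative to other genes of the same transcript length, the median member was lower in 4 of 9 types. The share of UMIs in HFD was 0.654-fold that in LFD in endothelial-like cells (95% interval 0.651 to 0.657), 0.841-fold in fibroblastic progenitor-like, 0.885-fold in plasma-like, 0.890-fold in macrophage-like, 0.909-fold in mesothelial-like, 0.918-fold in ILC2-like, 0.939-fold in B-like and 0.966-fold in Wt1+ stromal-like cells. Without immunoglobulin genes in the total, the ratio in plasma-like cells was 0.966. The ratio in fibroblastic progenitor-like cells rests on a less certain class. When cells were reassigned by likelihood on all genes other than members, 66.7% of its 90 LFD and 93.3% of its HFD cells kept this type. For Wt1+ stromal-like cells it was 88.1% and 77.8%. Whether the diets were compared on the same mix of cells was not tested. In T-like cells the ratio was 1.01, with an interval from 0.993 to 1.02, and it lay between 0.878 and 0.987 in 4 alternative settings. In others the HFD share stayed slightly the higher. Thinned to 2000 UMIs it was 24.8% in LFD and 25.2% in HFD T-like cells, without immunoglobulin genes 24.1% and 24.3%, and without mitochondrial genes 25.5% and 25.7%. In bins of equal UMI count the HFD share was the lower in 21 of 21 bins with at least 20 cells in both libraries, T-like cells of 500 to 2000 UMIs included.

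Over all 742 pairs of a member and a type, 167 were at least 20% lower and 4 at least 25% higher in HFD, the same step on the log scale. When each member was taken as a share of the members' UMIs, 21 were lower and 9 higher by that step. Almost as many of the lower pairs came from endothelial-like cells as from the other 8 types together. There, 81 of 83 members were at least 20% lower, against 16.2% of all genes with enough counts in this type. In fibroblastic progenitor-like cells it was 25 of 83 (background 18.7%), in plasma-like cells 16 of 83 (23.6%), in macrophage-like cells 14 of 83 (12.7%) and in ILC2-like cells 14 of 81 (19.7%). In mesothelial-like cells it was 8 of 83 (8.33%), in B-like cells 4 of 83 (15.4%), in Wt1+ stromal-like cells 4 of 83 (9.62%) and in T-like cells 1 of 80 (20.2%). Outside the endothelial-like cells the member counts were thus near or below the share over all genes, apart from the fibroblastic progenitor-like and, by little, the macrophage-like cells.

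**Figure D4:**
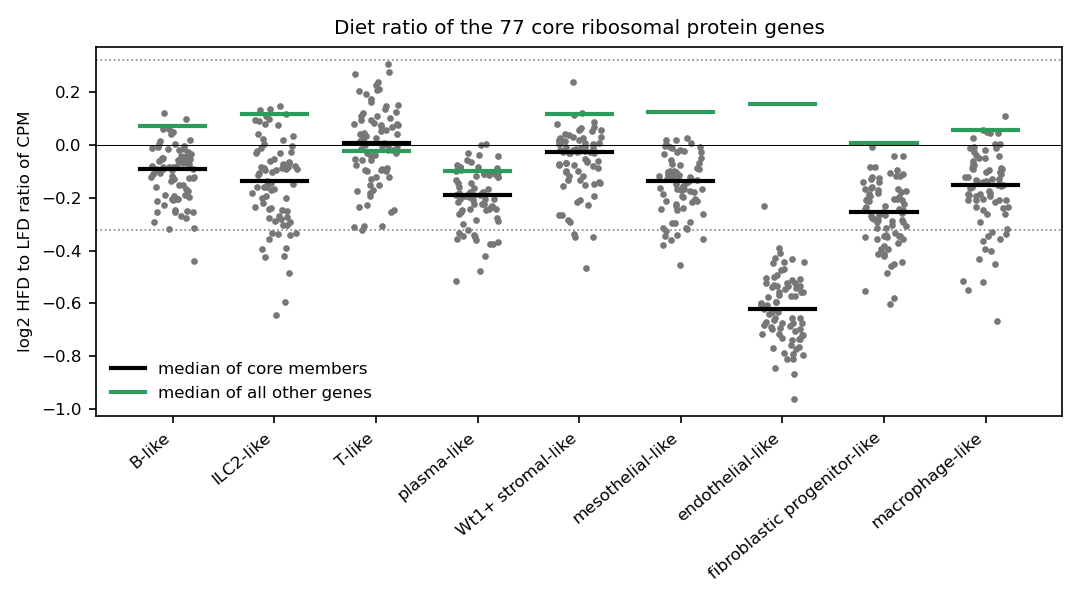
Log2 ratio of CPM, HFD to LFD, of each of the 77 core members (grey points, spread sideways for sight) in the 9 cell types, with the median of the core members (black line) and of all other genes (green line); dotted lines mark ratios 25% higher and 20% lower. In endothelial-like cells the members centre on −0.62 and the other genes on 0.16, while in T-like cells the members centre on 0.01.

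The 4 pairs that were higher were Rps27rt in ILC2-like (1.37-fold), mesothelial-like (1.33-fold) and fibroblastic progenitor-like cells (1.26-fold), and Rps19bp1 in macrophage-like cells (1.49-fold, interval 1.07 to 2.09, from 25.9 to 38.5 CPM). The intervals for Rps27rt were 0.738 to 2.54 in ILC2-like cells, on 25 and 22 counts, 0.842 to 1.96 in fibroblastic progenitor-like cells, on 28 and 160 counts, and 1.17 to 1.52 in mesothelial-like cells. The first pair of intervals included 1. No core member was at least 25% higher in any type. The share over all genes that was at least 25% higher was 35.2% in ILC2-like, 25.6% in mesothelial-like, 22.5% in fibroblastic progenitor-like and 18.9% in macrophage-like cells. In the types where no member was that much higher, it was 35.9% in endothelial-like, 24.9% in B-like, 22.1% in Wt1+ stromal-like, 16.3% in T-like and 10.4% in plasma-like cells.

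In endothelial-like cells nearly every member was lower in HFD. The median member stood at 0.656-fold, while the median of the other genes was 1.11-fold. Rpl35, of the tunnel exit, went from 1323 to 679 CPM (0.513-fold, interval 0.485 to 0.543), Rpsa, the laminin receptor protein of the 40S subunit, from 3312 to 1815 CPM (0.548-fold, 0.529 to 0.567), and Rps28 from 1846 to 1028 CPM (0.557-fold, 0.532 to 0.583). At the other end of the core, Rpl9 went from 2469 to 2106 CPM (0.853-fold, 0.824 to 0.883) and Rpl21 from 2048 to 1563 CPM (0.763-fold). The core members thus all lay below 1 in this type, within a range of ratios from 0.513 to 0.853.

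The difference was also seen in the distribution over single cells. The median endothelial-like cell gave 14.9% of its UMIs to ribosomal protein genes in LFD (606 cells) and 9.32% in HFD (590 cells), and in 79.2% of all pairs of an LFD and an HFD cell the HFD cell had the lower share. The median number of ribosomal protein UMIs per cell was 623.5 and 270. Within bins of UMI count the HFD share was 0.826-fold that of LFD at 500 to 2000 UMIs, 0.684-fold at 2000 to 5000, 0.692-fold at 5000 to 10000 and 0.740-fold above. Thinned to 2000 UMIs per cell, the shares were 17.0% and 10.6%, with 157 LFD and 137 HFD cells left out. Non-cycling cells alone gave 17.1% and 11.2%.

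Other properties of the endothelial-like cells also differed between the libraries, and some of them did so in other types too. Their median UMI count was 4092 in LFD and 3089 in HFD, cycling cells numbered 103 and 31, and Malat1 and Neat1, nuclear RNAs, held 1.27% and 2.01% of the UMIs. The mitochondrial share was 5.999% and 5.38%. Igkc, an immunoglobulin gene that endothelial cells do not make, held 0.0243% and 0.125%. Malat1 and Neat1 were also higher in HFD in the other compared types, for example 1.30% and 1.74% in mesothelial-like cells, except in fibroblastic progenitor-like cells (2.00% and 1.89%). All immunoglobulin genes together were higher in every type, for example 0.0242% and 0.0798% in mesothelial-like cells, except in B-like cells (1.67% and 1.59%). Of the 10 endothelial markers, Cdh5, Pecam1, Cldn5, Kdr and Ptprb were detected in a larger and Emcn, Egfl7, Flt1, Tie1 and Esam in a smaller percent of the HFD cells. Cldn5 went from 86.5% to 95.6% of cells and Emcn from 89.3% to 77.6%, the largest shifts each way. The part of these properties in the lower share was not tested.

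Over the types, some members lay well below the others. Rps27 was the lowest, with a median ratio of 0.746 over the types and at least 20% lower in 6 of 9. Its CPM went from 1335 to 840 in macrophage-like, 1486 to 1041 in plasma-like, 1656 to 1136 in endothelial-like and 1651 to 1194 in Wt1+ stromal-like cells, whereas it was 2075 and 2214 in ILC2-like cells. Rpl35 (median 0.763) was at least that much lower in 6 types, Rps29 (0.786) in 7, and Rpl41 (0.781), Rps21 (0.786) and Rpl37a (0.792) in 5. These are among the smallest ribosomal proteins for the most part, Rpl41 being little more than a single helix.

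At the other end stood Rpl9, with a median ratio of 1.03 and below 1 in 4 of 9 types, a median that turned to −0.03 on the log2 scale with median-ratio scaling or the stricter cell filter. It was followed by Rps2 (0.996), Rps4x (0.992), Rps24 (0.986), Rpl23 (0.982) and Rpl7 (0.974), each at least 20% lower in 1 type, or 2 for Rps2, among them the endothelial-like cells. Rpl9 went from 3577 to 3680 CPM in B-like and from 2381 to 2520 CPM in Wt1+ stromal-like cells. Relative to the whole set of members, the direction of Rps2, Rps4x, Rps24, Rpl7 and Rpl23 was upward, with log2 medians of 0.06 to 0.14 when each was taken as a share of the members' UMIs.

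The order went in part with transcript length. The principal transcripts of the 77 core members were 271 to 3706 nt long, with a median of 729 nt. The 12 core members with the lowest median ratio had a median of 415.5 nt and the 12 with the highest 867 nt. Across the 77 genes, the log2 length and the median log2 ratio had a Pearson correlation of 0.47 and a Spearman correlation of 0.459, as a description over genes that share the same libraries. Within single types the Spearman correlation over core members ran from 0.107 in ILC2-like to 0.502 in mesothelial-like cells. Genes outside the member list showed a trend in the same direction, with a Spearman correlation of 0.131 in macrophage-like to 0.424 in ILC2-like cells.

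**Figure D5:**
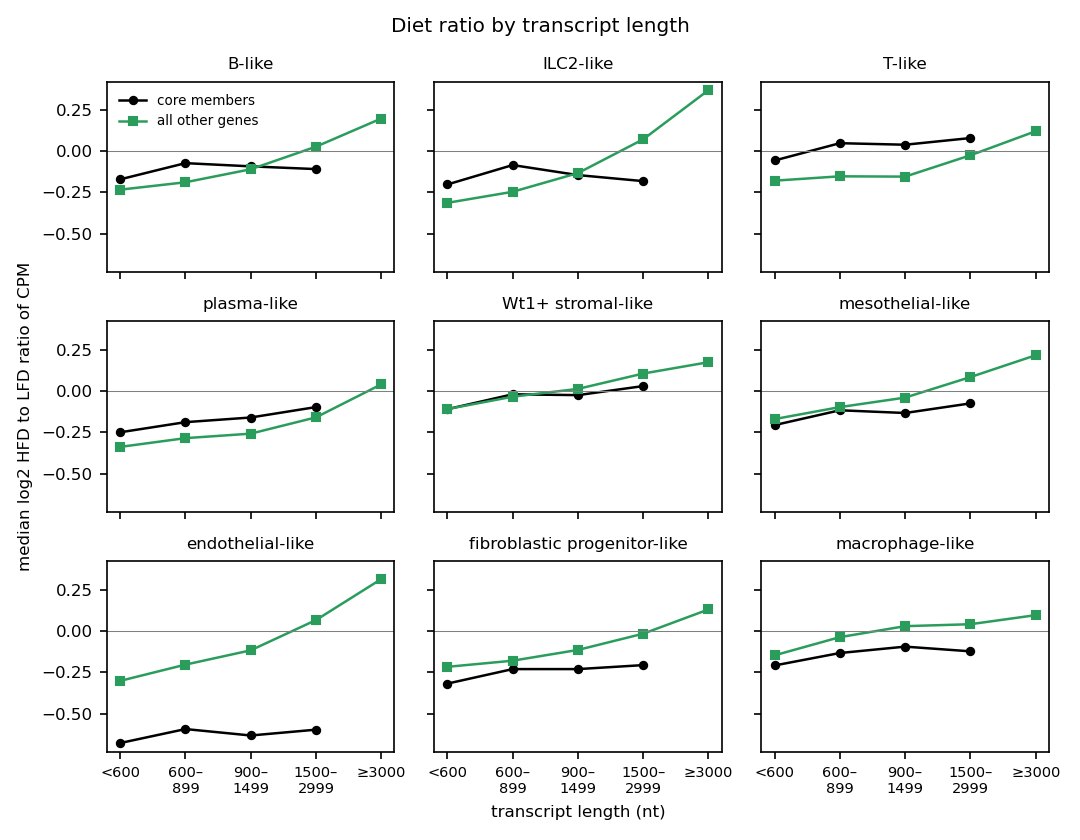
Median log2 HFD to LFD ratio of CPM (vertical axes) of core ribosomal protein genes (black circles) and of all other genes (green squares) in bins of transcript length in nt (horizontal axes), 1 panel per cell type; bins of under 5 genes are not drawn. Core members have their lowest median in the bin under 600 nt in all 9 types but do not rise with every bin beyond it in most of them, while the other genes are highest in the longest bin, and in endothelial-like cells the core members lie below other genes of the same length, by 0.38 in the shortest bin.

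Core members were then set against other genes of like length. In transcripts under 600 nt, the median ratio was 0.928 for core members and 0.928 for other genes in Wt1+ stromal-like cells, 0.867 and 0.890 in mesothelial-like, 0.842 and 0.791 in plasma-like, and 0.889 and 0.851 in B-like cells. It was 0.870 and 0.805 in ILC2-like and 0.962 and 0.884 in T-like cells, where the core members were the higher in this bin, and 0.802 and 0.861 in fibroblastic progenitor-like and 0.866 and 0.904 in macrophage-like cells. In these last types the core members lay below the others in each of the 3 bins up to 1500 nt, by 0.05 to 0.12 on the log2 scale, and above them in T-like cells, by 0.12 to 0.20, in plasma-like cells, by 0.09 to 0.10, and in B-like cells, by 0.02 to 0.12. Mesothelial-like cells also had the core members below in all 3 bins, by 0.02 to 0.09, and ILC2-like and Wt1+ stromal-like cells had them above in some bins and below in others. In endothelial-like cells it was 0.624 for 28 core members and 0.811 for 140 other genes. The log2 difference between core members and others in endothelial-like cells was −0.38 in this bin, −0.39 at 600 nt to under 900 nt and −0.52 at 900 nt to under 1500 nt. Taken relative to other genes of the same length bin, 82 pairs of a member and a type were at least 20% lower and 29 at least 25% higher, and 64 of the 82 were in endothelial-like cells. On this scale the median member was higher in HFD in B-like (1.05-fold), plasma-like (1.07-fold), T-like (1.11-fold), ILC2-like (1.05-fold) and, by the least, Wt1+ stromal-like cells (1.0045-fold). The plot of ratios by length shows this gap in that panel, and the cause of the length trend was not tested.

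The genes that go with ribosome production were counted by list, in the same way. In endothelial-like cells 16.2% of all genes were at least 20% lower and 35.9% at least 25% higher, which is the background for each list in that type. Fau and Rack1, proteins of the small subunit whose names do not follow the rule, were both at least 20% lower in endothelial-like cells. The 14 translation factors with TOP mRNAs had 8 lower (background 16.2%) and 0 higher (35.9%) in endothelial-like cells, with a median of 0.765. In the other types between 0 and 3 of them were lower, the 3 being in ILC2-like cells (background 19.7%), and over all genes the lower share in those types ran from 8.33% to 23.6%. Among them Eef1g (0.815) and Eef1d (0.851), of the elongation factor 1 complex, were lowest over types, and Eef2 (1.05) and the poly(A)-binding protein Pabpc1 (1.23) highest.

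The 22 ribosome assembly factors followed another pattern. In Wt1+ stromal-like cells 16 of 22 were at least 25% higher in HFD (median 1.31; background 22.1%) while the ribosomal protein genes there had a median of 0.984. In B-like cells 19 of 22 were lower (median 0.715; background 15.4%), beside 4 of 83 ribosomal protein genes. In endothelial-like cells 15 of 22 were lower (median 0.678; background 16.2%), in the same direction as the ribosomal protein genes. In plasma-like cells 12 of 22 were lower (background 23.6%), in mesothelial-like cells 8 of 22 (8.33%) and in fibroblastic progenitor-like cells 9 of 16 measured (18.7%), with none higher in these types. In macrophage-like cells 4 were lower (12.7%) and 3 higher (18.9%). In ILC2-like cells 2 of 10 measured went each way (19.7% lower and 35.2% higher over all genes), and in T-like cells none of 3 measured did (20.2% and 16.3%). Wt1+ stromal-like cells were thus the exception, as most of the differences elsewhere were downward. The number of cycling cells also differed, with 615 of 3835 LFD and 244 of 1154 HFD cells in the Wt1+ stromal-like type. In B-like cells it was 228 of 1093 and 109 of 796, and in endothelial-like cells 103 of 606 and 31 of 590. The part of cycling cells in these differences was not tested. Over types Bysl (0.709) and Nop10 (0.738) were lowest, and Gnl3, the nucleolar GTPase nucleostemin, highest at 1.12.

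Of the 78 mitochondrial ribosomal proteins, which serve the separate ribosome of that organelle, 53 were at least 20% lower in endothelial-like cells (median 0.751; background 16.2%), 42 in plasma-like (0.788; 23.6%) and 33 of 76 with enough counts in B-like cells (0.824; 15.4%). In Wt1+ stromal-like cells none was lower (9.62%) and 2 were higher (22.1%). Over types Mrps12 (0.732) and Mrpl36 (0.733) were lowest and Mrpl9 (1.34) and Mrps28 (1.29) highest. The 8 RNA polymerase I genes, which make the rRNA precursor, showed few differences, from Polr1a (0.968) to Rrn3 (1.08), with 2 of 6 measured lower in endothelial-like cells (16.2%) and 1 of 8 higher in Wt1+ stromal-like cells (22.1%). Among 11 regulators of ribosomal protein mRNA, Eif4ebp1 (0.837) and Myc (0.875) were lowest and Rptor (1.23) and Larp1 (1.18) highest, and 3 were higher (background 35.9%) and 2 lower (16.2%) in endothelial-like cells, near or below the share over all genes.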

How the data were processed

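Both 10x tables, deposited by the authors as whole-number UMI counts per gene and cell barcode, were used as deposited, and every column was used. Per the study's methods, the authors mapped the reads with Cell Ranger 4.0.0 and analysed the cells in Seurat 4.1.0 with doublets excluded, and the submitters' processing notes also name bcl2fastq 2.17.1.14, STAR and the mm10 build. The tables held 11281 LFD and 9631 HFD barcodes with 114311020 and 119498750 UMIs. Cells with 500 to 40000 UMIs, under 12.5% mitochondrial UMIs and at least 100 genes were kept.

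Cells were typed by how many markers of fixed lists had a UMI. The least number for each type was set after seeing marker detection, and types may differ from those of the study for that reason. Cells that met 2 or more classes (601 LFD, 515 HFD) were left out, and no doublet caller was run. Unsubdivided stromal-like cells (1586 and 1393) and unassigned cells (411 and 351) entered no comparison by type. Cells of 1 library are not replicates, so no test was made. Shares carry exact Clopper-Pearson intervals and CPM ratios exact conditional binomial intervals, both 95%, and genes needed 20 counts in both libraries in a type. An unequal member differed at least 1.5-fold from its median type in both libraries, and a diet ratio was counted when at least 25% higher or 20% lower. Cycling cells had at least 5 of 14 cycling markers. Transcript lengths came from GENCODE M21, using the principal transcript.

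The members, lists and thresholds were chosen with earlier results of these data known, and the comparison by transcript length was added after seeing the data. Genes named in the text were the 12 most unequal members, the 6 members with the highest and lowest median diet ratio together with those past that limit in most types, members fixed by role or as paralogs, and the 2 highest and lowest of each list. Some genes that the rule would name are not reported here. Rpl21, Rps28 and the genes set beside the endothelial-like result were named after their values were seen. Analyses used Python 3.11.15, numpy 2.4.6, scipy 1.17.1 and pandas 2.3.3, and the CPM ratio, interval and counting steps were tested on simulated data.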

Additional observations from a re-analysis of the deposited data

Results flagged for a closer look

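Some rows that the naming rule leaves out, annotated as pseudogenes of members, held UMIs in both libraries. Rpl10-ps3 had 48.6 CPM in the LFD and 55.5 CPM in the HFD library, Rpl9-ps6 had 29.4 and 38.1 CPM, and Rpl36a-ps1 had 19.4 and 21.7 CPM. All pseudogene rows together equalled 0.0490% of the members' UMIs in LFD and 0.0629% in HFD, and whether their reads came from the parent genes was not tested.

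Rps19bp1 went in opposite directions in a pair of cell types, at 1.49-fold in HFD macrophage-like cells (25.9 to 38.5 CPM) and at 0.490-fold in HFD endothelial-like cells (41.3 to 20.2 CPM). Both counting intervals leave out 1, but with 1 library per diet the difference between the types was not tested.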

How the results depend on the processing

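Each kind of value was recomputed under the alternatives that apply to it, shares under other cells and denominators, and ratios under other scalings, filters and types. The scaling by transcript length was added after seeing the data. No paired analysis was possible because each diet had 1 library. Of the summary values, 27 stayed within the limits set for a like value and 7 moved. Of the other values, for single types and members, 166 stayed, 171 moved by more than those limits with no change of direction and 18 changed direction. The 12 unequal pairs became 87 with CPM of all UMIs and 6 with the stricter cell filter. The 167 lower and 4 higher diet pairs became 21 and 9 as a share of the members' UMIs, 82 and 29 relative to genes of the same length, and the higher pairs 10 without a count minimum. The T-like ratio of shares turned to 0.937 as a mean over cells, 0.878 with the stricter filter, 0.987 with types by likelihood and 0.940 without the 10% of cells with most UMIs. Rpl31 in B-like cells turned to a log2 of 0.091 in CPM. Median log2 diet ratios that changed sign were Rpl9 (−0.027 with median-ratio scaling and −0.033 with the stricter filter), Rps4x (0.010) and Rps2 (0.0058) without immunoglobulin, Rps24 (0.00083) with types by likelihood, Rpl7 (0.12), Rpl23 (0.058), Rps24 (0.12), Rps4x (0.14) and Rps2 (0.14) as a share of the members' UMIs, and Rpl23 (0.016), Rps4x (0.047) and Rps2 (0.078) relative to length. The cause of these changes was not tested beyond what the scaling itself does. With 53 T-like cells per library and 90 LFD fibroblastic progenitor-like cells, values in these types rest on little depth.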

Other observations

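Against the lower share of ribosomal protein genes, some other genes of the endothelial-like cells took up more UMIs in HFD. Fabp4, a fatty acid carrier of capillary endothelium and adipocytes, went from 2.41% to 3.55% of the UMIs, and Malat1 from 1.21% to 1.90%. Cd36, the fatty acid transporter, went from 0.163% to 0.349%, Gpihbp1, which anchors lipoprotein lipase in capillaries, from 0.125% to 0.199%, and Cldn5, a tight junction protein, from 0.127% to 0.246%. The 10 genes with the largest gain also held Gm42418, a row that overlaps ribosomal RNA sequence, from 0.142% to 0.269%, the immediate early gene Egr1 from 0.0834% to 0.179%, Tmsb4x from 1.45% to 1.57%, Sparc from 0.398% to 0.504%, and Igkc from 0.0243% to 0.125%. The source of these gains was not tested. Dendritic-like cells, with 39 LFD and 58 HFD cells, gave 20.6% and 20.1% of their UMIs to ribosomal protein genes.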
